A study of Mus musculus with 15 samples.

Results

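Nprl3 is the gene next to the mouse α-globin cluster whose body holds most of the α-globin enhancers, and its stretch of chromosome 11 was described here as 84 DpnII restriction fragments contacted by the α-globin promoters. The members were all fragments of chromosome 11 whose midpoint fell in the Nprl3 region of the mm9 build, which made 84 of the 778244 fragments listed and 84 of the 2210 within 500 kb of the captured promoters. They ran from 32135980 to 32170701, a window of 34722 bp that began 45.893 kb and ended 11.616 kb from the nearer captured promoter. The assay was NG Capture-C, in which crosslinked chromatin is cut and ligated and the ligation products of chosen promoter fragments are enriched and sequenced, so that the reads on a fragment measure how often it was joined to the captured promoter.

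There were 15 libraries in 9 groups. The control libraries, the libraries lacking elements R1 and R2 together (R1R2_KO) and those lacking R2 and R3 together (R2R3_KO) numbered 3 each and were labelled as biological replicates. In the column names the control libraries continue the S numbers of R1R2_KO, while R2R3_KO repeats those of R1R2_KO. What these numbers stand for was not stated, so whether R2R3_KO was handled apart from the other groups is not known. Deletions of R1, R2, R3, Rm or R4 alone (R1_KO, R2_KO, R3_KO, Rm_KO, R4_KO) and mouse embryonic stem (ES) cells were 1 library each. The 14 erythroid samples came from fetal livers of E12.5 embryos on an F1 C57Bl6 / CBA background, expanded in culture for 5 to 7 days, freed of cells bearing Ter119, a marker of mature red cells, and differentiated for 18 h. The controls carried no deletion according to the labels. The ES cells were the E14 line of strain 129/Ola, so that they differ from the erythroid samples in strain as well as cell type. How the ES cells were grown, whether deletions were homozygous and how many embryos were pooled were not stated. The single deletions and the ES cells lay in another table than the controls, and no ratio was taken across the tables. Contact counts hold no marker genes against which the cell type could be checked.

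Enhancers are stretches of DNA that raise transcription of a gene from a distance, and in erythroid cells the α-globin enhancers come close to the α-globin promoters through looping of the chromatin between them. R1, R2, R3, Rm and R4 are named in order of their place along the chromosome towards the α-globin genes, and R1 and R2 are known as the strongest enhancers of the group. Nprl3 itself codes for a subunit of the GATOR1 complex, which restrains mTORC1 signalling when amino acids are scarce. In the RefSeq gene order of GRCm38.p6, Mpg, a DNA glycosylase, lay on the far side of Nprl3, and Hba-x, Hba-a1, Hbq1b and Hba-a2 followed on the near side. Hba-a1 and Hba-a2 are the adult α-globin genes whose promoters were captured.

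The Hba-a1 promoter is shown because it was captured and is nearly the same as that of Hba-a2, and the Nprl3 promoter because it belongs to the gene described, although it was not captured. They are the 250 bases upstream of each start in RefSeq GRCm38.p6, 5′ to 3′ in the direction of transcription, with matches to GATA, the core of the sites of GATA factors, in capitals.
Nprl3: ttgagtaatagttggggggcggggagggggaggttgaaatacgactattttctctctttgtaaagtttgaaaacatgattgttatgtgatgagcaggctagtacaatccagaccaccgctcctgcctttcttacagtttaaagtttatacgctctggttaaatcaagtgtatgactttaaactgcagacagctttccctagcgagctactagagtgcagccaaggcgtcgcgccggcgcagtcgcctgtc
Hba-a1: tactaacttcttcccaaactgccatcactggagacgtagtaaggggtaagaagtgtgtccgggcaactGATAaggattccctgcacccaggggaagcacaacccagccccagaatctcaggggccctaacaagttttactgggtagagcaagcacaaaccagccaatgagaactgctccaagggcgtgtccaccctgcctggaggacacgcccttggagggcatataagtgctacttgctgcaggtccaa
Nprl3 is read from the minus strand and Hba-a1 from the plus strand. The Hba-a2 window shared an unbroken run of 247 of its 250 bases with that of Hba-a1, offset by 3 bases. The captured fragments left 2 gaps in the tables, at 32182317 to 32184781 (2465 bp) and 32194990 to 32197598 (2609 bp) of chromosome 11 in mm9, and the reads of both were in 1 count. The motif GATA, searched on both strands as GATA or TATC, was present once in the Hba-a1 window and not in the Nprl3 window, and 53.6% of 32851 RefSeq promoter windows of the same length held it. GATC, the site that DpnII cuts, was in neither window and in 41.9% of all windows. These letters say only what is in these windows. The sequences of the elements themselves were not used here.

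Libraries held 66880 to 138216 reads in the replicated groups and 386214 to 713934 in the single deletions and ES cells, of which 41413 to 88666 and 235235 to 533323 lay on chromosome 11 more than 2 kb from a captured promoter. Values are given as reads per kb of fragment per 100000 of those chromosome 11 reads. Nprl3 took a large share of the scale itself. It held 27.7 to 29.5% of those chromosome 11 reads in control, 16.2 to 17.4% in R1R2_KO and 19.8 to 20.2% in R2R3_KO. In the ES library it held 9.6% of them. Of the reads within 500 kb alone, it held 40.0% ± 0.19 (SD, n = 3) in control, 28.2% ± 0.64 in R1R2_KO and 31.8% ± 0.05 in R2R3_KO. In the single deletions its share of the reads within 500 kb was 33.4 to 38.4%, and in ES cells 14.1%. A loss at Nprl3 therefore raises the scaled values elsewhere, and the same change read on a scale of reads within 500 kb would be shifted by 0.26 on the log2 scale for R1R2_KO against control and by 0.20 for R2R3_KO, and on a scale of chromosome 11 reads beyond 500 kb by -0.52 and -0.42.

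The fragments were 13 to 2201 bp long with a median of 295.5 bp, and 69 of the 84 were at least 100 bp. One listed fragment, 13 bp long, had no reads in the replicated table and was not in the other, and 83 passed the count filter of at least 90 reads over 9 libraries. In control the fragments of at least 100 bp held 167 to 4022 reads per kb with a median of 942, and the shorter ones 1062 to 6581. Reads per kb fell with fragment length. Over 83 fragments the log2 of length had a Pearson correlation of -0.77 with reads per kb and of 0.68 with reads per fragment, all from the same libraries. A short fragment thus stands high per kb and a long one stands low, and each element was therefore read on 3 measures.

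Elements were placed from the single deletions. A run of fragments was taken as the block of an element where its reads in that deletion were below 50% of the mean of the other single deletions, so the low value of a block in its own single deletion was set by this choice and is no finding. R1 spanned 32144385 to 32146566 (2 fragments), R2 32150268 to 32151881 (3), R3 32155867 to 32157248 (4), Rm 32164968 to 32166169 (3) and R4 32168682 to 32169921 (4). These 16 fragments left 68 in 6 stretches before, between and after the blocks. Where each deletion ended was not stated, so a fragment beside a block may be partly deleted. R1 lay 36.4 kb from the nearer captured promoter, R2 31.1 kb, R3 25.5 kb, Rm 16.5 kb and R4 12.7 kb.

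**Figure D1:**
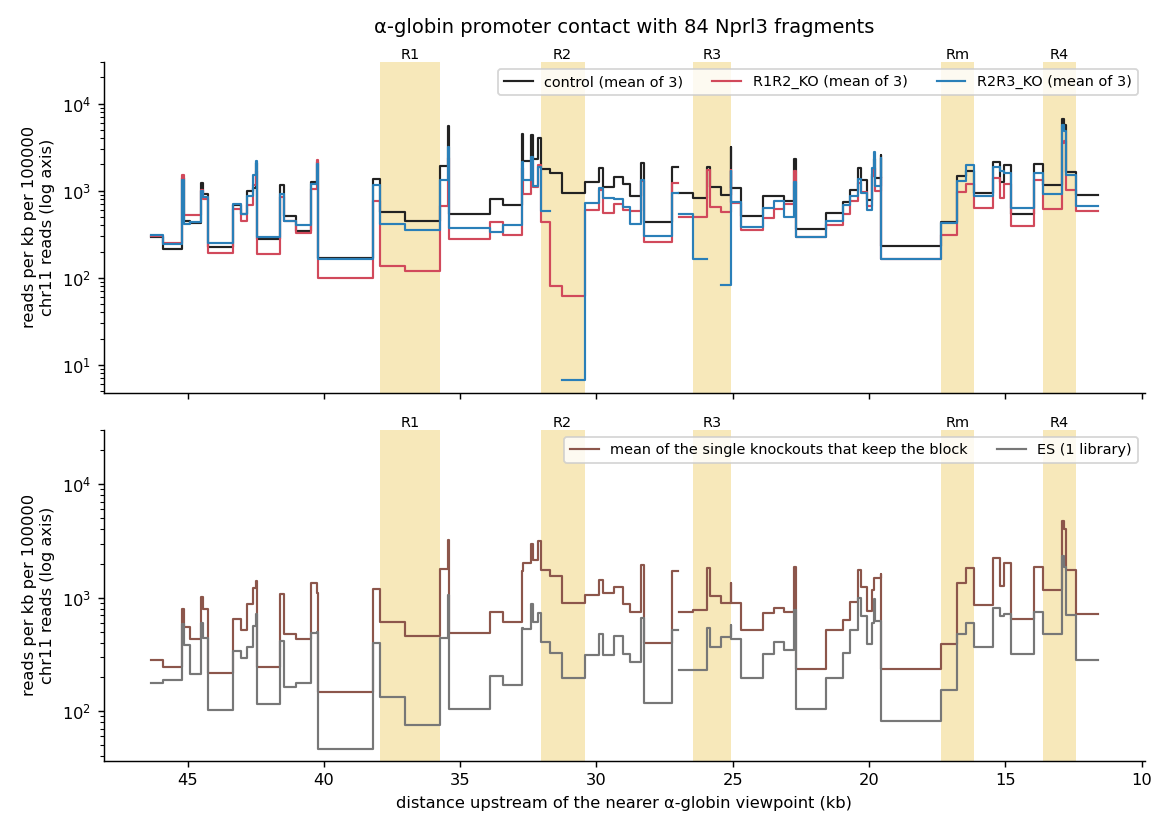
Contact of the α-globin promoters along Nprl3 by DpnII fragment, in reads per kb per 100000 chromosome 11 reads on a log axis, against the distance in kb to the nearer captured promoter. The upper panel shows the means of 3 control, 3 R1R2_KO and 3 R2R3_KO libraries, the lower panel the mean of the single deletions that keep a block and the ES library. Shaded bands are the 5 element blocks, and a line is broken where a fragment had 0 reads. Both deletion lines run below control between R1 and R3, and the ES line lies below the single deletions at each of the 69 fragments of at least 100 bp.

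In control cells, R4 and R2 held the most reads per kb of the 5 elements and R1 the fewest. R4 held 1496, 1927 and 1956 reads per kb in the 3 control libraries (1793 ± 257.5, SD, n = 3), the highest of the 11 segments. R2 held 1145, 1395 and 1366 (1302 ± 136.7). In both blocks control library 1 was the lowest. Rm held 1002, 1012 and 1105 (1040 ± 56.7) and R3 977, 996 and 1016 (996 ± 19.4), so that R3 and Rm could not be ordered beyond their spread. R1 held 497, 491 and 509 (499 ± 9.1), below all other segments except the stretch before it, at 437 ± 7.6. Among the stretches, that between R1 and R2 held 1174 ± 33.2 and that between Rm and R4 1179 ± 50.3, which overlapped, and that between R3 and Rm held 635 ± 4.7.

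Set against the fragments in no block within 3 kb on either side, R4 held 1.61 ± 0.16 times the flanking reads per kb (SD, n = 3; 1.43, 1.70 and 1.70 in the 3 libraries). The ratio was 1.26 ± 0.12 at R2, 1.25 ± 0.06 at Rm and 1.23 ± 0.02 at R3, and the libraries of these 3 elements overlapped. R1 had 0.83 ± 0.01 times the flanking value, lower than 1 in each library, but windows of 1 kb either side of the element in place of the block gave 1.43. The measure decided part of this order. Counted per fragment, R2 (1.64 ± 0.16) and R1 (1.48 ± 0.01) stood highest, while R4 (1.06 ± 0.10) and R3 (1.06 ± 0.02) were close to their flanks and Rm was at 1.26 ± 0.06. The R1 fragments averaged 1091 bp against 614 bp in their flanks, and the R4 fragments 310 bp against 470 bp. By the last measure, reads over a line fitted to fragment length and distance on the 67 tested fragments outside the blocks, R2 stood at 2.12 ± 0.25, R4 at 1.46 ± 0.18, R1 at 1.31 ± 0.07, R3 at 1.15 ± 0.01 and Rm at 1.01 ± 0.05. R2 and Rm were at or above 1 on all 3 measures in the mean, as were R3 and R4, whereas R1 was below 1 per kb and above 1 on the others. This measure was chosen after the values were seen. Of the 10 fragments farthest above that line, 4 lay in blocks, where 16 of all 84 fragments did. Of these 4, 3 were in R2 and 1 in R4, and the other 6 lay in the stretches on either side of R2.

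**Figure D2:**
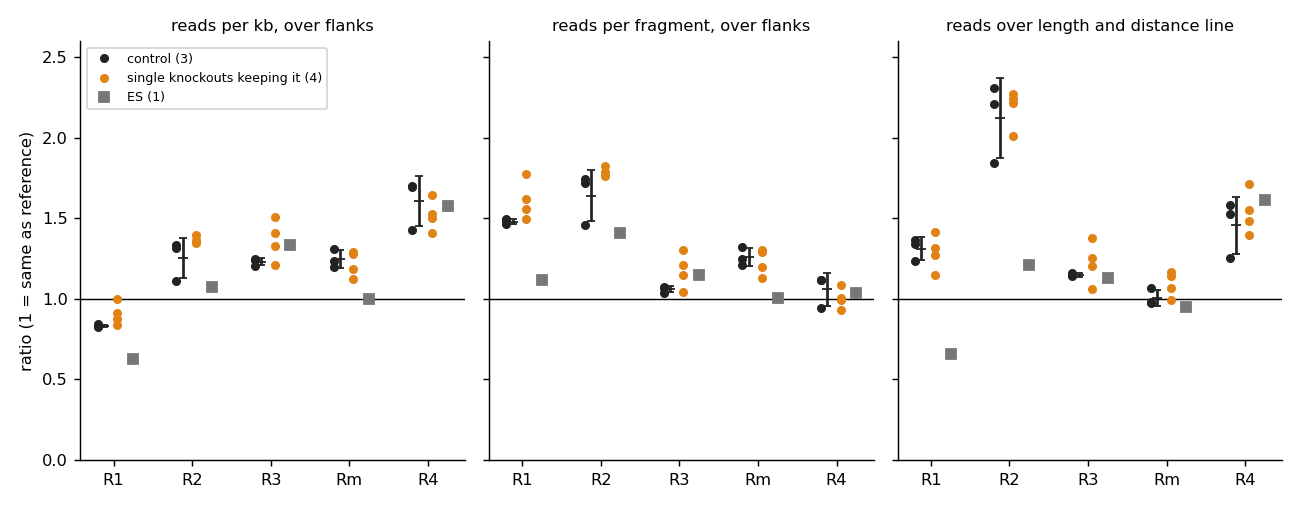
Reads in each element block relative to a reference, where 1 is the same as the reference, by 3 measures: reads per kb over the flanks, reads per fragment over the flanks, and reads over a line of fragment length and distance. Points are libraries (3 control with mean and SD, the 4 single deletions that keep the element, 1 ES). R2 stands highest in the middle and right panels and R4 in the left, and the ES value of R1 and of R2 lies below every erythroid value on each.

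Single fragments with high values per kb lay both in and beside the elements. Of the 10 fragments of at least 100 bp with the highest control values, 1 lay in a block, where 14 of all 69 such fragments did, a 106 bp fragment of R3 at 32156382 to 32156487 (1853 ± 214.5 reads per kb). The highest was the 104 bp fragment at 32150164 to 32150267, which adjoins R2 on the side of R1. It held 3879, 4635 and 3551 reads per kb in control (4022 ± 556), 2.99 times the median of the fragments within 5 kb. Its neighbours at 32149975 (2322 ± 355) and 32149641 (2222 ± 244) followed. The others of the 10 began at 32166872 (2124 ± 243), 32153936 (2092 ± 21.9), 32168371 (2044 ± 214), 32167266 (1993 ± 180), 32146567 (1918 ± 190) and 32155102 (1896 ± 30.6). Those at 32166872, 32168371 and 32167266 lie between Rm and R4, and 32146567 adjoins R1. A local peak, defined as at least 2 times the median of the fragments of at least 100 bp within 5 kb, was found at 6 fragments, none of them in a block. They began at 32137802, 32140708, 32141862, 32144133, 32150164 and 32161920 and were 101 to 252 bp long, below the median length.

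The ratios held in the single deletions and, in part, in the double ones. In the 4 single deletions that keep each element, the mean ratio per kb was 0.91 at R1, 1.37 at R2, 1.37 at R3, 1.22 at Rm and 1.52 at R4. R1R2_KO kept ratios of 1.27 ± 0.08 at R3, 1.25 ± 0.11 at Rm and 1.41 ± 0.08 at R4, and R2R3_KO kept 0.86 ± 0.03 at R1, 1.42 ± 0.08 at Rm and 1.53 ± 0.07 at R4.

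The double deletions checked the labels, since the blocks were placed without them. In R1R2_KO the R1 block held 112, 138 and 126 reads per kb (25.1% of control) and the R2 block 123, 161 and 168 (11.6%), and in R2R3_KO the R2 block held 126, 134 and 135 (10.1%) and the R3 block 84, 105 and 59 (8.3%). All were far below every control library. The remaining reads were not spread evenly. In R2R3_KO the R2 fragment at 32150623 to 32151061 and the R3 fragments at 32156382 to 32156487 and 32156488 to 32156889 had 0 reads in all 3 libraries. With a floor of 3 reads per library, control was at least 97.3-fold, 27.1-fold and 60.4-fold higher there. In R1R2_KO the same R2 fragment held 57, 81 and 104 reads per kb, and the R2 fragment at 32150268 to 32150622 held 448, 420 and 460 in R1R2_KO and 561, 592 and 592 in R2R3_KO against 1478, 1966 and 1829 in control.

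Contact summed over the Nprl3 fragments that neither deletion removed was lower in both double deletions than in control, and lower in R1R2_KO than in R2R3_KO. The fragments outside R1, R2 and R3 summed to 23385, 24554 and 24754 reads per 100000 in control (24231 ± 739, SD, n = 3), to 14947, 15850 and 15691 in R1R2_KO (15496 ± 482) and to 18972, 18673 and 18714 in R2R3_KO (18786 ± 163). The 3 groups did not overlap. The log2 change against control was -0.65 (SE 0.06, edgeR adjusted p = 2.01e-27) in R1R2_KO and -0.37 (SE 0.06, adjusted p = 8.08e-09) in R2R3_KO, and R2R3_KO was 0.28 above R1R2_KO (adjusted p = 5.76e-05). An exact two-sided permutation test gave 0.1 for each, the smallest p that 3 against 3 libraries allow. On a scale of reads over the whole genome the difference between the deletions was 0.17 and no longer passed (edgeR adjusted p = 0.235). Both comparisons with control share the same control libraries.

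Counted by fragment, 53 of the 78 tested fragments outside the deleted blocks fell in R1R2_KO and none rose, with a median log2 change of -0.58. Over all 395 fragments tested within 500 kb, 27.1% were called in that comparison and 23.3% were called lower and 3.8% higher, and the median change was -0.06. In R2R3_KO 33 of 76 fell and none rose, with a median of -0.32, where 16.2% of all tested were called, 14.7% were called lower and 1.52% higher, and the median was -0.03. Without R2R3_KO library 2 the count was 21. A count with reads within 500 kb as the scale gave 33 lower and 2 higher in R1R2_KO, and 19 lower and 4 higher in R2R3_KO. With chromosome 11 reads beyond 500 kb as the scale, 58 fell in R2R3_KO.

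Among the segments left in place, the largest falls lay between R1 and R3. The stretch between R1 and R2 held 506, 565 and 556 reads per kb in R1R2_KO (46.2% of control) and 723, 640 and 677 in R2R3_KO (57.9%), against 1141, 1207 and 1175 in control. All 10 of its fragments fell in either deletion, and its log2 change was -1.12 (SE 0.07, adjusted p = 1.25e-55) and -0.79 (SE 0.07, adjusted p = 1.18e-29). The stretch between R2 and R3 held 541, 602 and 591 in R1R2_KO and 624, 623 and 605 in R2R3_KO, against 1041, 1053 and 1055 in control. Its 10 tested fragments fell in both, by 0.86 and 0.77 on the log2 scale (adjusted p = 2.39e-35 and 3.95e-28). Of all the segments and 5 kb bins fitted together, 65.4% were called in R1R2_KO (7.85% lower, 57.6% higher) and 23.6% in R2R3_KO (6.28% lower, 17.3% higher).

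The single fragment after R4, the nearest to the α-globin genes, held 799, 977 and 909.5 reads per kb in control, 500.3, 652 and 586 in R1R2_KO and 657, 619 and 715 in R2R3_KO. Both deletions lay below control there, with log2 changes of -0.65 (adjusted p = 1.52e-08) and -0.43 (adjusted p = 5.69e-04). Between R3 and Rm the changes were -0.46 (adjusted p = 4.62e-12) and -0.37 (adjusted p = 1.46e-07).

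On the far side of R1 the changes were smaller for the stretch as a whole. The stretch before R1 held 374, 365 and 360 reads per kb in R1R2_KO and 447, 415 and 427 in R2R3_KO, against 429, 439 and 444 in control. R1R2_KO lay below all control libraries (log2 change -0.25, SE 0.06, adjusted p = 3.84e-04), with 4 of 21 fragments lower, and R2R3_KO overlapped them (-0.03, adjusted p = 0.770; exact two-sided permutation p = 0.6), with 0 of 21 called. Of the fragments called in R1R2_KO, those at 32142086 and 32144133 lay next to R1. Their log2 changes were -0.74 and -0.83 (edgeR adjusted p = 4.41e-05 and 6.52e-06), while 17 of 21 were not called and the highest stood at 0.28. The fall of the whole stretch in R1R2_KO did not hold on 2 other scales, at 0.01 with reads within 500 kb (adjusted p = 0.845) and -0.19 with reads over the whole genome (adjusted p = 0.0971). Within a library, the ratio of the stretch between R1 and R2 to that before R1 does not depend on the scale. It was lower than in control by 0.86 (SE 0.07) on the log2 scale in R1R2_KO and by 0.76 (SE 0.03) in R2R3_KO, with no overlap and an exact permutation p of 0.1 in each. The pairs of stretches compared were chosen after their values were seen, and over the 19 ratios compared the adjusted exact p was 0.211 for each of these.

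**Figure D3:**
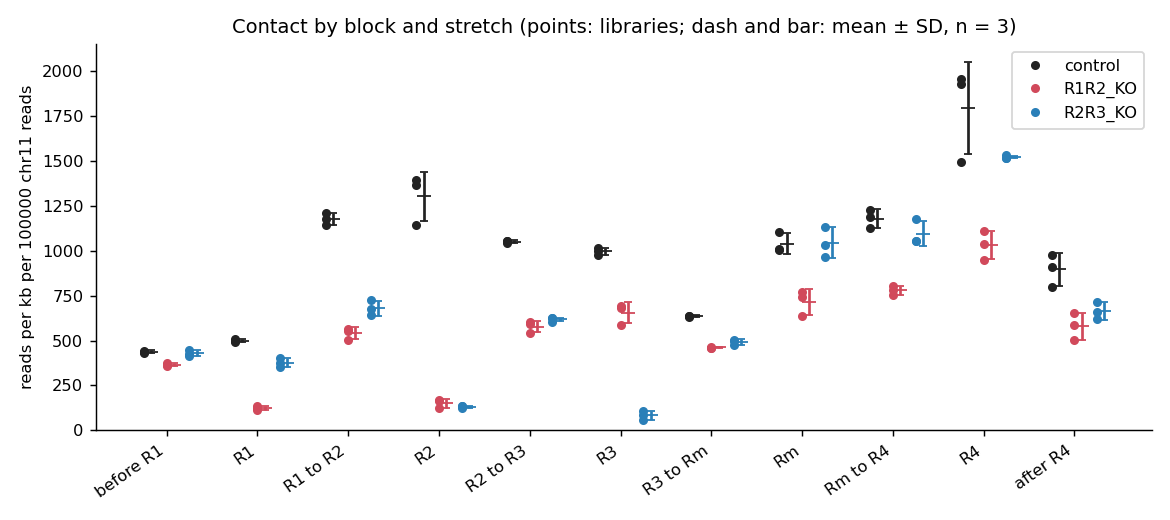
Reads per kb per 100000 chromosome 11 reads in the 5 element blocks and 6 stretches of Nprl3, in order towards the α-globin genes. Points are libraries and the bars mean ± SD of 3, for control, R1R2_KO and R2R3_KO. R1R2_KO lies below control in each segment, and R2R3_KO overlaps control before R1, at Rm, between Rm and R4 and at R4.

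Of the elements left in place, R3, Rm and R4 fell in R1R2_KO and R1 fell in R2R3_KO. In R1R2_KO, R3 held 588, 693 and 682 reads per kb (65.7% of control), Rm 635, 772 and 739 (68.8%) and R4 950, 1038 and 1107 (57.6%). None overlapped control, and the log2 changes were -0.61 at R3 (SE 0.09, adjusted p = 5.77e-11), -0.55 at Rm (SE 0.08, adjusted p = 5.50e-10) and -0.80 at R4 (SE 0.07, adjusted p = 1.92e-25). The ratios between these 3 elements overlapped between the groups. The ratio of Rm to R4 moved by 0.25 (SE 0.12; exact permutation p = 0.3) and that of R3 to R4 by 0.18 (SE 0.12; exact p = 0.3). Relative to the stretches of the same library, R3, Rm and R4 overlapped control too, with differences of 0.03 (SE 0.06), 0.09 (SE 0.08) and -0.15 (SE 0.12) on the log2 scale (exact p = 0.7, 0.3 and 0.3).

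In R2R3_KO, Rm held 965, 1134 and 1033 reads per kb, 100.4% of control, and the groups overlapped (log2 change 0.0058, adjusted p = 0.973). The direction at Rm turned with the scale, to 0.21 with reads within 500 kb (adjusted p = 0.0157) and to -0.42 with chromosome 11 reads beyond 500 kb (adjusted p = 0.00355), so no change at Rm is stated. R4 held 1530, 1517 and 1515 reads per kb, 84.8% of control, inside the range of the control libraries. Its log2 change of -0.24 (SE 0.07) passed in edgeR (adjusted p = 0.00795) but not without control library 2 (-0.18, adjusted p = 0.124), control library 3 (-0.17, adjusted p = 0.123) or R2R3_KO library 2 (-0.235, adjusted p = 0.0594), nor with reads within 500 kb as the scale (-0.03, adjusted p = 0.678). R1 held 401, 354 and 376, 75.6% of control and below all control libraries (-0.40, SE 0.09, adjusted p = 2.41e-04). Relative to the stretches of the same library, R1 moved by 0.0018 (exact p = 1.0), R4 by 0.18 (SE 0.11) and Rm by 0.41 (SE 0.09). The last 2 had no overlap with control and an exact p of 0.1, the smallest possible, which was 0.211 after adjustment over the 19 ratios.

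**Figure D4:**
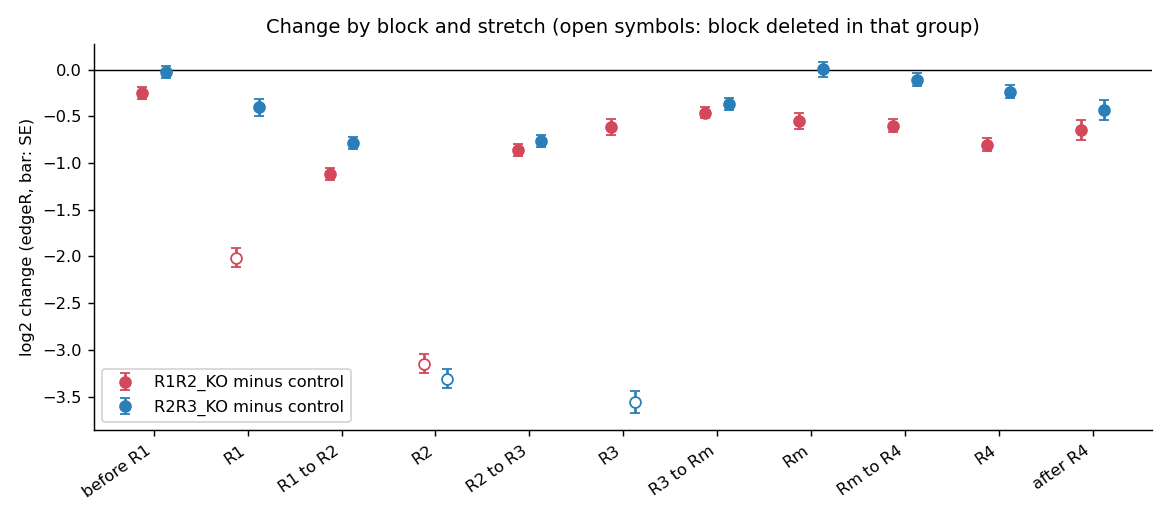
Log2 change in reads against control for each block and stretch of Nprl3, from edgeR with SE bars, for R1R2_KO and R2R3_KO. Open symbols are blocks deleted in that group. In the segments left in place R1R2_KO ran from -0.25 before R1 to -1.12 between R1 and R2, and R2R3_KO was nearest to 0 before R1 and at Rm.

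Set directly against each other, R2R3_KO held more contact than R1R2_KO from Rm to R4. Rm was higher by 0.56 (SE 0.08, adjusted p = 2.20e-09), the stretch between Rm and R4 by 0.49 (SE 0.07, adjusted p = 5.21e-11) and R4 by 0.57 (SE 0.07, adjusted p = 3.39e-12), with no overlap between the groups. After R4, nearer still to the α-globin genes, the groups overlapped and the difference of 0.21 did not pass (adjusted p = 0.171; exact permutation p = 0.2). The stretch between R1 and R2 was higher by 0.33 (adjusted p = 3.04e-05) and the stretch before R1 by 0.23 (adjusted p = 0.00590), and neither passed on the whole-genome scale (adjusted p = 0.118 and 0.381). Before R1 the call was also lost without R2R3_KO library 1 (0.20, adjusted p = 0.0707). For the stretch between R2 and R3 the difference was 0.10 (SE 0.07, adjusted p = 0.276), and between R3 and Rm it was 0.09 (SE 0.06, adjusted p = 0.278). Of 74 fragments in no block deleted in either group, 16 were higher in R2R3_KO and none lower, of which 9 lay in Rm, R4 or between them. In that comparison 10.1% of all tested fragments were called, 6.58% were called higher and 3.54% lower, and 10.5% of segments and bins were called (3.66% higher, 6.81% lower). With the whole-genome scale 7 were higher and 2 lower. The ratio of Rm to R4 overlapped between the deletions (difference -0.02, SE 0.09, exact p = 1.0), while R4 relative to the stretches was 0.33 higher in R2R3_KO (SE 0.05, exact p = 0.1, no overlap).

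Among single fragments, the largest falls in R1R2_KO outside the deleted blocks lay between R1 and R2. The 294 bp fragment at 32146567 to 32146860, which adjoins R1, held 1699, 2040 and 2015 reads per kb in control, 698, 628 and 696 in R1R2_KO and 1248, 1320 and 1429 in R2R3_KO. The 3 groups did not overlap, and its log2 change in R1R2_KO was -1.50 (SE 0.14, adjusted p = 2.04e-14). In R1_KO it held 1115 reads per kb against 1718 to 2237 in the other single deletions. The next 4 falls began at 32149606 (-1.30), 32149641 (-1.26), 32146861 (-1.26) and 32148903 (-1.14). Of these, 32146861 follows directly on 32146567 and held 1859 reads per kb in R1_KO against 3191 to 3785 in the other single deletions. Whether 32146567 and 32146861 were partly deleted was not tested. In R2R3_KO the largest fall was at 32148396 to 32148902, which held 970, 801 and 638 in control and 316, 433 and 267 in R2R3_KO (-1.23, SE 0.16, adjusted p = 7.24e-09). It was followed by 32150164 (-1.10), 32153557 (-1.10), 32149606 (-1.05) and 32149975 (-1.02), of which 32153557 lies between R2 and R3 and the others between R1 and R2.

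The highest control fragment, beside R2 at 32150164, fell to 1616, 2093 and 2186 reads per kb in R1R2_KO and to 2375, 1820 and 1347 in R2R3_KO, with log2 changes of -1.06 and -1.10 (adjusted p = 1.32e-07 and 8.81e-08). The deletions overlapped there. The 156 bp fragment at 32167110 to 32167265, between Rm and R4, showed the widest gap between the deletions outside the deleted blocks, at 730, 925 and 808 in R1R2_KO and 1276, 2209 and 1532 in R2R3_KO, against 1225, 1248 and 1304 in control. R2R3_KO was 1.05 above R1R2_KO on the log2 scale (SE 0.18, adjusted p = 8.17e-06). It was not called against control (0.41, adjusted p = 0.0870). The next largest gaps were at 32146567 (0.97), 32165890 in Rm (0.73), 32142086 before R1 (0.72) and 32167510 between Rm and R4 (0.70). The smallest called gaps ranged from 0.39 to 0.54.

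The single deletions were 1 library each, which allows no test, and each was read against the mean of the others that keep the segment. R1_KO was lower than the mean of the other single deletions in each segment outside R1, from 73.2% at R3 and 77.5% between R1 and R2 to 94.0% between Rm and R4. R2_KO held 82.5% between R2 and R3 and 93.9% between R1 and R2, but 114% at R1, 124% at R4 and 128% between Rm and R4. R3_KO stayed between 92.6 and 106.9% outside R3. Rm_KO held 86.7% between Rm and R4 and 117% to 130% in the 4 segments from the stretch after R1 to R3, the highest between R2 and R3. R4_KO held 79.2% after R4 and 90.4 to 109.7% elsewhere. In its own deletion a block kept 19.5% (R2) to 40.2% (R1), which the choice of the blocks had fixed to be under 50%.

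**Figure D5:**
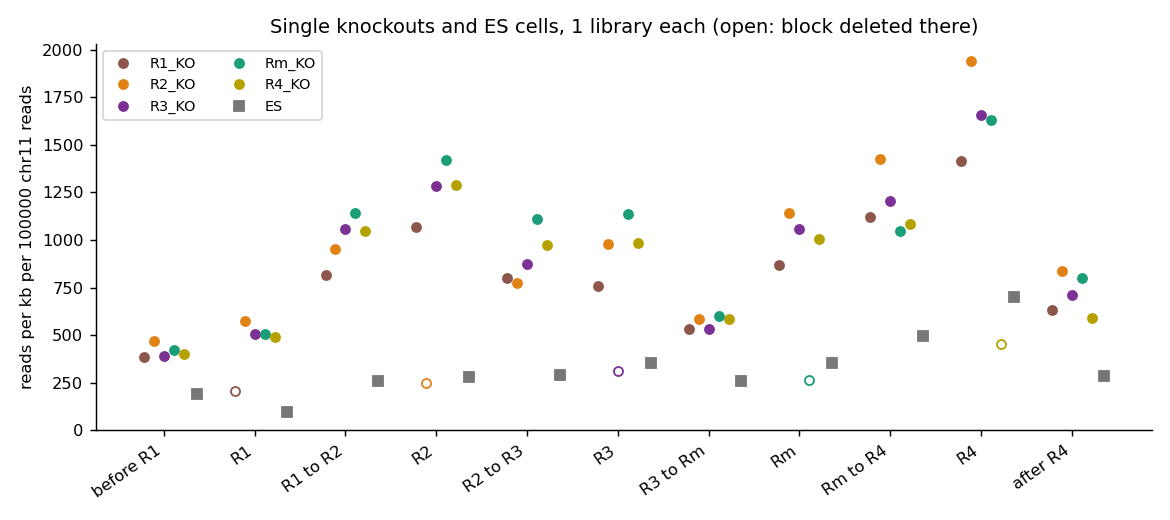
Reads per kb per 100000 chromosome 11 reads in the blocks and stretches of Nprl3 for the 5 single deletions and ES cells, 1 library each. Open symbols are the block deleted in that library. The ES library holds 98.8 reads per kb at R1 and 703 at R4, and every single deletion that keeps the segment lies above it.

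ES cells, in which the α-globin genes are silent, kept 38.0% of the contact of the single deletions over the whole window (277.8 against 731 reads per kb; Wilson 95% interval 37.7 to 38.3%, counting error only). They kept least at R1, with 98.8 reads per kb against 492 to 574 (19.0%, 17.9 to 20.1%), and at R2, with 278 against 1068 to 1423 (22.0%, 21.1 to 22.9%). R3 kept 36.6% (35.3 to 38.1%), Rm 34.9% (33.5 to 36.4%) and R4 42.3% (41.1 to 43.6%), with 353, 355 and 703 reads per kb. The stretches kept 38.5% together, 25.8% between R1 and R2, 32.0% between R2 and R3, 45.4% between R3 and Rm and 46.4% before R1. R1 and R2 were thus below the stretches beside them as well as below R3, Rm and R4, beyond counting error. Without replicates the spread between cultures is unknown. The chromosome 11 reads used as the scale, more than 2 kb from a captured promoter, were 75.8% of all reads in the ES library. In the single deletions they were 48.9 to 60.9%. On a whole-genome scale the kept shares were 27.1% at R1, 32.5% at R2, 51.4% at R3, 48.9% at Rm and 58.3% at R4.

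What ES cells kept varied with place along the gene. Over the 69 fragments of at least 100 bp the kept share ran from 16.3 to 77.0% with a median of 37.5%. The lowest were 32145279 to 32146566 in R1 (16.3%), 32150623 to 32151061 in R2 (20.6%) and 32146903 to 32148395 between them (21.5%). The 7 such fragments between R1 and R2 kept 21.5 to 28.3%, the 10 between R2 and R3 28.3 to 37.2%, the 14 between R3 and Rm 35.1 to 57.5% and the 17 before R1 31.0 to 77.0%. The highest was 32136425 to 32137129 (77.0%), near the far end of the window. R4 kept its place as a peak per kb in ES cells, at 1.58 times its flanks, and R3 did so at 1.33, whereas R2 was at 1.08, Rm at 1.00 and R1 at 0.63. Per fragment the ES ratios were 1.41 at R2, 1.15 at R3, 1.12 at R1, 1.04 at R4 and 1.01 at Rm. On that measure R4 was close to its flanks in ES cells, as in control, so its place as a peak depended on the measure. Measured against the line of length and distance, the ES ratios were 1.61 at R4, 1.21 at R2, 1.13 at R3, 0.95 at Rm and 0.66 at R1. Of the 6 local peaks of control, 4 were local peaks in ES cells too, at 32137802, 32144133, 32150164 and 32161920. Local peaks were called per kb, which favours short fragments. Against the line of length and distance in control, 32137802 and 32161920 stood below it, at 0.90 and 0.95. The fragments at 32144133 and 32150164 stood above it, at 1.55 and 2.53. The fragment beside R2 at 32150164 held 727 reads per kb in ES cells and 2583 to 3676 in the single deletions, and still stood at 2.27 times its neighbours.

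Outside the window, the 3 bins whose level followed the undeleted Nprl3 sum most closely over the 9 replicated libraries lay near and among the α-globin genes, of 180 bins compared. They were 32187033 to 32189723 (Pearson r = 0.95), 32175105 to 32179853 (0.94) and 32189724 to 32192980 (0.90). These correlations are a description over libraries that fall into 3 groups and share a scale. In the second of these bins control held 7815 reads per 100000, R1R2_KO 5441 and R2R3_KO 6742, an order of groups like that at Nprl3.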

How the data were processed

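The deposited files hold raw read counts per DpnII fragment of mm9, with reads trimmed by Trim Galore and aligned by Bowtie per the submitters' processing notes (no versions are recorded there). No unique molecular identifiers are stated. The Wilson intervals cover only the counting error of the ES library and take the mean of the single deletions as fixed. From the 2 tables of the α-globin promoters, 7 columns whose names match no sample label were not used. Fragments within 500 kb of the captured promoters with at least 90 reads over the 9 replicated libraries (395) were fitted with edgeR's quasi-likelihood test (edgeR 4.0.16, R 4.3.3) in 1 design, with chromosome 11 reads as library size and Benjamini-Hochberg adjustment over all fragments at 0.05. Blocks and stretches were summed and fitted with 5 kb bins of the rest (191 features), and the undeleted sum likewise. Exact two-sided permutation tests over libraries stand beside them. Named were the 10 highest control fragments, the 5 lowest and highest called changes of each comparison, and the 3 closest bins. The fits were tested on simulated data. For R1R2_KO against control, 42.4% of altered fragments and 45.2% of altered segments and bins were recovered at a log2 size of 0.5. At a log2 size of 1 these shares were 84.2% and 82.8%. Among features left unaltered, 0% of fragments and 0.76% of segments and bins were called. A fragment or segment that was not called may therefore still differ, in some cases by a log2 size of 1. Libraries were not paired by replicate number in the main fit. Deviations from the group means correlated above 0.1 in 2 of 9 same-number pairs, the highest at 0.22. They did so in 0 of 18 pairs of different number, the highest at 0.07. Whether the number stands for a shared batch was not tested. Members, blocks and lists were chosen with earlier results of these data known. Alternatives were DESeq2 1.42.0, TMM factors, other scales, filters, flanks and element windows, a replicate block, and leaving out each library.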

Additional observations from a re-analysis of the deposited data

How the results depend on the processing

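The fragment counts stayed within 1.5 times in 47 of 51 alternatives. The direction and the side of the threshold held in 415 of 442 for blocks and stretches (14 turned in direction) and in 50 of 51 for the undeleted sum. For differences between elements only the direction was compared, and it held in 125 of 133 (8 turned). Contact peaks moved by less than their spread in 19 of 35 and by more in 16. The 35 include leaving out each control library in turn. That cannot shift the control mean by as much as its SD, so these settings could not count as moved. All 16 that moved came from other element windows, flanks or measures, so the peaks depended strongly on these choices. ES shares moved by less than counting error in 11 of 20. The cause of the exceptions was not tested. With reads within 500 kb as the scale, R1R2_KO had 35 called fragments, and the log2 changes were 0.011 before R1 in R1R2_KO and, in R2R3_KO, 0.18 before R1, 0.21 at Rm, 0.10 between Rm and R4 and -0.032 at R4. With chromosome 11 reads beyond 500 kb, R2R3_KO had 58 called fragments and -0.42 at Rm, and ES cells kept 34.8% at R3 and 39.9% at R4. With reads over the whole genome, R2R3_KO against R1R2_KO had 9 called fragments, 0.17 for the undeleted sum, -0.0076 between R2 and R3 and -0.013 between R3 and Rm, Rm in R2R3_KO was at -0.035, and ES cells kept 27.1% at R1, 32.5% at R2, 51.4% at R3, 48.9% at Rm and 58.3% at R4. Rm in R2R3_KO was at -0.037 with a 5 kb zone left out around the promoters and at -0.23 with TMM factors. Windows of 1 kb either side of the elements in place of the blocks gave, in R2R3_KO, -0.13 at Rm, 0.00096 between Rm and R4 and -0.13 for R1 over the stretches, -0.063 for R3 over the stretches in R1R2_KO, ES shares of 20.7% at R1 and 31.1% at R3, and control peaks of 1.43 at R1, 1.64 at R2, 1.18 at R3 and 1.04 at Rm. Flanks of 5 kb gave 0.65 at R1, 1.13 at R3, 1.36 at Rm and 2.36 at R4. Reads per fragment gave 1.48 at R1, 1.64 at R2, 1.06 at R3 and 1.06 at R4, and the line of length and distance, chosen after seeing the data, gave 1.31 at R1, 2.12 at R2, 1.15 at R3 and 1.01 at Rm.

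Leaving out each library in turn gave 21 to 35 called fragments in R2R3_KO, lowest without R2R3_KO library 2, and in R2R3_KO changes of -0.35 to -0.17 at R4, -0.060 to 0.061 at Rm and -0.031 to 0.037 for R1 over the stretches. For R3 over the stretches in R1R2_KO the range was -0.0014 to 0.083, and for Rm over R4 between the deletions -0.079 to 0.044. With the replicate number as a block, 54 fragments were called in R1R2_KO, 33 in R2R3_KO and 19 between the deletions (17 higher, 2 lower). Same-number pairs had correlations of -0.05 to 0.22, and pairs of different number -0.18 to 0.07. Reads per library limit what single fragments can show, most of all those under 100 bp.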
